A study of Mus musculus with 9 samples.

Results

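The BMP and Id genes were followed through a WDR5 RNA purification experiment in mouse embryonic stem cells (ESCs). They are the 8 genes Bmp4, Bmpr1a, Smad6, Smad7, Id1, Id2, Id3 and Id4, taken as the rows of the expression table with these symbols, and all 8 were found among 24132 symbols. BMP4 is a secreted ligand of the TGF-beta family. It binds receptor complexes that hold the type I receptor BMPR1A, the receptor phosphorylates SMAD1 and SMAD5, and these enter the nucleus with SMAD4. SMAD6 and SMAD7 are inhibitory Smads that dampen the signal, and the Id genes are its classic targets. Id proteins have a helix-loop-helix domain without a DNA-binding region and hold E proteins away from DNA. In mouse ESCs grown with LIF, BMP and Id genes are known to support self-renewal.

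The experiment was RIPiT-seq, in which RNA that travels with an epitope-tagged protein is recovered through tandem purification (FLAG first, then HA) and sequenced. The cells were V6.5 ESCs, a 129/B6 F1 hybrid line grown without feeders in LIF, and formaldehyde fixed the complexes before lysis. WDR5 is a WD40-repeat subunit of the MLL complexes that methylate histone H3, and F266A is a point mutant in its RNA binding cleft. The 3 lines compared were all infected with lentivirus. EV carried no tagged protein, WT carried FLAG-HA-tagged wild type WDR5, and F266A carried the tagged mutant, whose construct is shorter at the N terminus. The tagged lines came from isolated clones chosen for tagged protein near the endogenous level, the sources used here do not give the number of clones behind each line, and all lines kept their endogenous WDR5. Each line gave 2 IP libraries and 1 input library of RNA before purification, 9 libraries in all, so the inputs had no replicates. The values are RPKM, a read count divided by the length of the transcript and by the library's mapped reads, and can therefore be compared between genes.

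The libraries held an estimated 13412344 to 50175786 mapped reads, and reads on genes made up 20.1% to 22.6% of the inputs and 27.2% to 29.5% of the IPs. All 8 ESC markers (Pou5f1, Nanog, Sox2 and others) were above 0 in every library, with Pou5f1 at 36.3 to 81.1 RPKM. The F266A libraries stood apart from the other lines and from each other. The summed RPKM of 14 primitive endoderm markers was 60.4 in the F266A input and 75.9 in F266A IP2, but 24.2 in F266A IP1, and it lay between 23.8 and 31.1 in the 6 EV and WT libraries. Foxa2, a defining gene of that list, was at 0 in the EV libraries, WT IP2 and F266A IP1 and at most 0.0960 elsewhere. Gata4 was 1.90 in the F266A input, 0.695 in F266A IP1 and 2.69 in F266A IP2, and at most 0.171 in EV and WT. Single markers of F266A IP1 went both ways, more of them up than down. Gata4, Gata6, Dab2, Pdgfra, Col4a1, Col4a2, Cubn and Lrp2 were above every EV and WT library. Sparc and Lamb1 were below all of these, and Sox17, Foxa2, Lama1 and Amn lay within their range. Dab2 was 0.916 in F266A IP1 and at most 0.261 in EV and WT, whereas Sparc was 12.2 there and at least 14.9 in EV and WT. The summed RPKM of 4 Y-linked genes was 4.43, 0.0383 and 7.21 in F266A input, IP1 and IP2, 7.42 to 9.50 in EV and 0.182 to 0.324 in WT. The library labelled F266A IP1 thus did not match the other libraries of its own line. Its endoderm sum, of which Sparc alone gave 12.2, lay within the range of the WT libraries (23.8 to 28.7). Several of its single endoderm markers, Gata4 among them, were above theirs, and its Y-linked sum lay below theirs. Whether it came from another clone or from cells of another line is not given in the labels and was not tested, so a mean and SD over the 2 F266A IPs may not describe a single kind of cell. The F266A minus EV differences between IPs are given with and without this library for the 5 of the 8 genes that were tested. Some other tests that rest on it are given only with it. The sums of 6 mesoderm markers (0.467 to 0.957), 5 trophoblast markers (1.26 to 4.08) and 7 fibroblast markers (0.451 to 1.59) were low in all 9 libraries. The mouse Wdr5 row ranged over the IPs from 11.8 to 12.9 in WT, 8.18 to 8.79 in F266A and 9.34 to 10.5 in EV, but reads of the transgene were not separated from it. In bulk libraries such as these, fewer cells that express a gene and less RNA per cell cannot be told apart.

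The Id genes and the inhibitory Smad genes are direct targets of BMP Smads, whose binding sites in such genes include a GC-rich element. The letters GGCGCC, which read the same on both strands, were therefore searched in the 2000 bases before the GENCODE M1 start of each gene on mm9. Id1, Id2, Id4 and Smad6 had 1 match each, Smad7 had 2, and Bmp4, Bmpr1a and Id3 had 0. Of 21046 such windows of all genes, 21.4% held the letters. A longer motif, in which GTCT, a Smad4 half-site, follows GGCGCC after 5 bases of any kind, contains the shorter one. This spelling was found on either strand in 0 of the 8 windows and in 0.143% of all. Other letters in place of GTCT were not searched, so composite sites spelled otherwise are not counted. In the Id1 sequence below, GACA stands in that place. The matches of the 3 Id genes and Smad6 are shown on the strand of the gene with the 30 bases on each side, since they set the Id genes that have the element beside Id3, which has none in this window. Capitals mark the match.
Id1 (chr2:152560858-152560923, plus strand): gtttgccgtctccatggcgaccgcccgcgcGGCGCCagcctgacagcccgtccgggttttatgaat
Id2 (chr12:25781153-25781218, minus strand): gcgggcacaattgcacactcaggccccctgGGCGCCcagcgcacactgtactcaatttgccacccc
Id4 (chr13:48356307-48356372, plus strand): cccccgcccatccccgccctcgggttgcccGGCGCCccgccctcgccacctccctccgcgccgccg
Smad6 (chr9:63870833-63870898, minus strand): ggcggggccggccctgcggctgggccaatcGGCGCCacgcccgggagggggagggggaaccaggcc
The match began 1099 bases before the start of Id1, 231 before Id2, 459 before Id4 and 1002 before Smad6. It is a match of letters, not a measured binding site. The genes with a match did not share 1 pattern of RNA levels. Among the Id genes that have it, Id1 was highest in the F266A IPs, while Id2 and Id4 were lower in both F266A IPs than in both EV IPs.

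Bmp4 RNA was most abundant in the F266A line, in its input as well as in its IPs. Bmp4 (chr14:47003195-47010344, minus strand, mm9) gave, in the order input, IP1, IP2, RPKM of 4.17, 5.77 and 11.4 for F266A, 1.14, 2.74 and 3.02 for EV, and 1.08, 4.15 and 3.66 for WT. Every F266A library was thus above the corresponding libraries of the other lines, and the IPs of the 3 lines did not overlap, with EV lowest, WT next and F266A highest, an order found in 4.16% of the genes tested. The mean of the F266A IPs was 8.56 ± 3.95 RPKM (SD, n = 2), 2.98-fold that of the EV IPs at 2.88 ± 0.20 (SD, n = 2). The F266A input was 3.66-fold the EV input and 3.85-fold the WT input. Between 90.0 and 616 estimated reads stood behind each value.

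**Figure D1:**
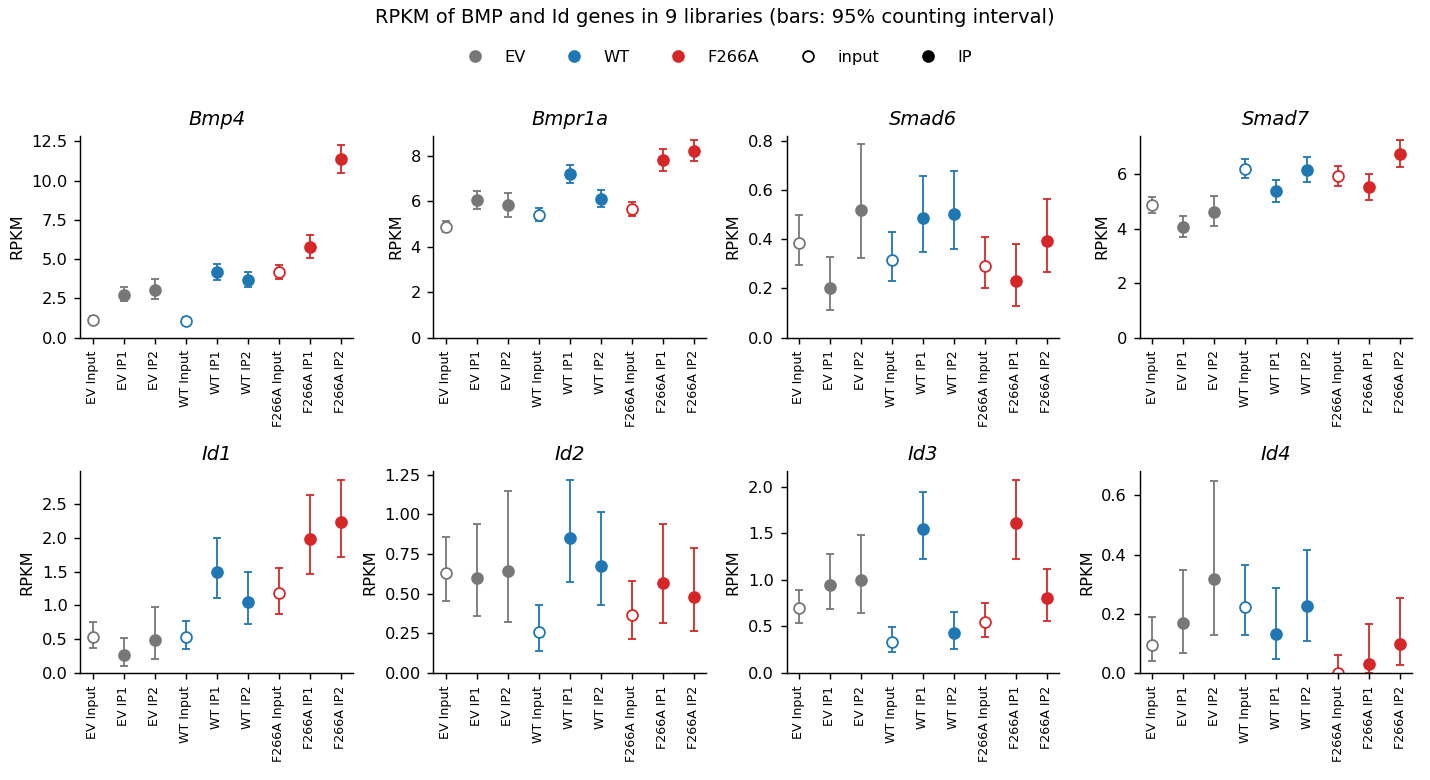
RPKM (vertical axis, linear, starting at 0, with a scale of its own in each panel) of the 8 genes in each of the 9 libraries. Open points are inputs, filled points are IPs, grey is EV, blue is WT and red is F266A, and bars are exact 95% Poisson intervals of the estimated reads, which cover counting error only. Bmp4 and Id1 are highest in the F266A IPs, whereas Smad6, Id2 and Id4 stay below an RPKM of 1 in every library.

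On the log2(RPKM + 1) scale, the F266A IPs exceeded the EV IPs by 1.24 for Bmp4 (SE 0.24, 95% interval 0.68 to 1.80), and the difference passed the test with an adjusted p = 0.0368 (limma, Benjamini-Hochberg over the 9787 genes that reached an RPKM of 1 in 2 or more libraries). Without F266A IP1 it was 1.67 (adjusted p = 0.00343), and without F266A IP2, the library with the high endoderm sum, it was 0.81 (adjusted p = 0.0330). The call was lost without EV IP1 (adjusted p = 0.228) or EV IP2 (0.178), where the remaining EV library was assumed to vary like the other lines, without either WT IP (0.0637 and 0.0647), under quantile normalization (0.0534) and with no filter on low values (0.207).

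Between WT and EV, the Bmp4 difference of the IPs was 0.34 (SE 0.24, adjusted p = 0.881). Between WT and F266A it was -0.90 (SE 0.24, 95% interval -1.46 to -0.34, adjusted p = 0.139), and neither passed the limma test. Without F266A IP1 the WT minus F266A difference became -1.33 (adjusted p = 0.0069), while without F266A IP2 it was -0.47 (adjusted p = 0.161).

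The receptor gene Bmpr1a varied much less. Bmpr1a (chr14:35223920-35316527, minus strand) gave, again for input, IP1 and IP2, RPKM of 4.89, 6.05 and 5.82 for EV, 5.41, 7.20 and 6.09 for WT, and 5.64, 7.81 and 8.22 for F266A. Its IPs followed the same order as those of Bmp4, EV below WT below F266A with no overlap, and it was the most abundant of the 8 genes on average, with 496 to 1557 estimated reads per library. The F266A IPs exceeded the EV IPs by 0.38 on the log2 scale (SE 0.12, 95% interval 0.10 to 0.65), which did not pass (limma, adjusted p = 0.12, and 0.41 with an adjusted p of 0.136 without F266A IP1).

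Both Bmp4 and Bmpr1a overlap genes on the opposite strand (Gm15217 and Gm15222 for Bmp4, Gm17110 for Bmpr1a), and so does Id4 (A330033J07Rik). The counting is not stated to use strand, so reads of these partners cannot be told apart from reads of the genes.

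Of the inhibitory Smads, Smad7 was well expressed and Smad6 was not. Smad7 (chr18:75527183-75555589, plus strand) gave 4.87, 4.07 and 4.62 RPKM for input, IP1 and IP2 of EV, 6.20, 5.37 and 6.17 for those of WT, and 5.94, 5.53 and 6.75 for those of F266A. The IPs of both tagged lines were above those of EV, and WT and F266A overlapped. The F266A minus EV difference was 0.41 (SE 0.13, limma adjusted p = 0.128), or 0.54 without F266A IP1 (adjusted p = 0.0769), and the WT minus EV difference 0.34 (SE 0.13, adjusted p = 0.849), and neither passed.

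Smad6 (chr9:63800953-63869866, minus strand) stayed below an RPKM of 1 in all libraries and was not tested. Its input, IP1 and IP2 values were 0.387, 0.200 and 0.520 for EV, 0.317, 0.486 and 0.501 for WT, and 0.292, 0.229 and 0.395 for F266A, with 14.7 to 60.8 estimated reads. The 2 EV IPs enclosed all the other IPs, and their exact 95% Poisson intervals (0.114 to 0.326 and 0.325 to 0.788) overlapped only between 0.325 and 0.326. The spread between the EV replicates thus covered the IPs of the other lines, and no difference between lines was tested.

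Among the Id genes, Id1 was the one called by the test between lines. Id1 (chr2:152561987-152563146, plus strand) gave RPKM of 1.18, 1.99 and 2.23 for input, IP1 and IP2 of F266A, 0.531, 1.50 and 1.06 for those of WT, and 0.537, 0.261 and 0.487 for those of EV. The 2 F266A IPs were the highest of the 9 libraries and the 2 EV IPs the lowest, with the WT IPs between them and no overlap. The mean was 2.11 ± 0.17 in the F266A IPs, 1.28 ± 0.31 in the WT IPs and 0.374 ± 0.160 in the EV IPs (SD, n = 2 each), a ratio of 5.64 for F266A over EV and 3.42 for WT over EV. The EV values rest on few reads, about 7.56 and 7.58, and their 95% intervals were 0.109 to 0.523 and 0.205 to 0.977 RPKM, below the F266A IP intervals of 1.46 to 2.64 and 1.72 to 2.85. The F266A input was 2.20-fold the EV input and 2.22-fold the WT input, and these are single libraries.

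The Id1 difference between F266A and EV IPs was 1.18 on the log2(RPKM + 1) scale (SE 0.16, 95% interval 0.82 to 1.54, limma adjusted p = 0.0128). It was 1.24 without F266A IP1 (adjusted p = 0.0184) and 1.13 without F266A IP2 (0.0353). It no longer passed without EV IP1 (1.06, adjusted p = 0.111), without EV IP2 (1.30, 0.0932) or with no filter on low values (0.128). Id1 passed the filter through 5 libraries, of which 3 were F266A, 2 were WT and 0 were EV. The WT minus EV difference of 0.73 (SE 0.16, 95% interval 0.37 to 1.09) had an adjusted p of 0.463, and the WT minus F266A difference of -0.45 (SE 0.16) an adjusted p of 0.203 (-0.51 and 0.212 without F266A IP1).

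**Figure D2:**
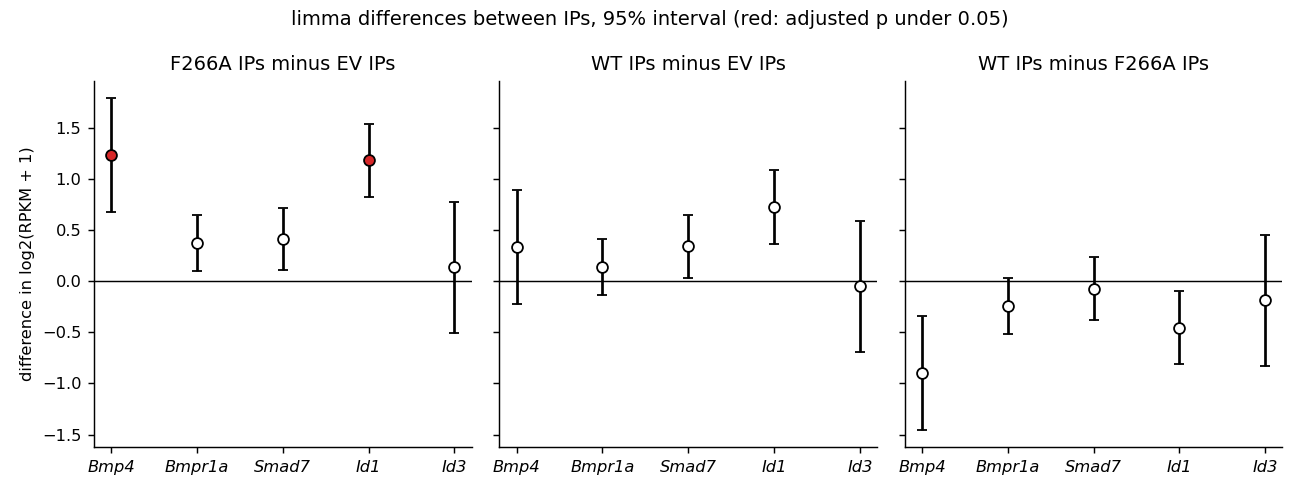
Differences between the IPs of each pair of lines (vertical axis, log2(RPKM + 1)) for the 5 genes tested, with 95% intervals from limma; each panel is 1 comparison, and red points have an adjusted p under 0.05. Bmp4 at 1.24 and Id1 at 1.18 are the red points, both in the F266A minus EV panel.

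Id3 differed more between the replicates of each tagged line than between the means of the lines. Id3 (chr4:135699412-135701670, plus strand) gave RPKM of 0.698, 0.948 and 0.999 for input, IP1 and IP2 of EV, 0.337, 1.55 and 0.427 for those of WT, and 0.548, 1.61 and 0.803 for those of F266A. Replicate 1 was well above replicate 2 in both tagged lines, the replicates of EV lay close together, and the IPs of the 3 lines overlapped. The F266A minus EV difference was 0.14 (SE 0.28, limma adjusted p = 0.828) and turned to -0.13 without F266A IP1. The WT minus EV difference was -0.05 and turned to 0.37 without WT IP2.

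Id2 (chr12:25778666-25780957, minus strand), which stayed under the filter, was highest in the WT IPs. Its RPKM in input, IP1 and IP2 was 0.256, 0.851 and 0.674 for WT, 0.632, 0.600 and 0.641 for EV, and 0.365, 0.569 and 0.477 for F266A. The WT IPs were above all 7 other libraries although the WT input was the lowest of the 9. The values rest on 10.9 to 40.2 estimated reads, and the 95% interval of WT IP2, 0.425 to 1.01, contained the values of all 4 other IPs.

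Id4 (chr13:48356796-48359405, plus strand) was close to the detection limit. Its RPKM in input, IP1 and IP2 was 0.0955, 0.168 and 0.316 for EV and 0.224, 0.132 and 0.226 for WT, and F266A IP1 and IP2 had 0.0295 and 0.0983. In the F266A input Id4 was listed at 0, with an exact 95% Poisson upper limit of 0.0593 RPKM, where 3 reads would give 0.0482. All F266A values were thus below those of the WT libraries and of the EV IPs, from at most 3.98 estimated reads.

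Between F266A and EV, 2 of the 5 genes tested were called, both higher, against a background of 445 of 9787 genes (4.55%) called, 114 of them (1.16%) higher and 331 (3.38%) lower. Id1 passed the filter through 3 F266A, 2 WT and 0 EV libraries, and Id3 through 1 F266A, 1 WT and 0 EV libraries. The counts over the 5 genes are therefore partly set by the filter. The median difference of the 5 was 0.41, and that of all 9787 genes -0.00. By the order of libraries alone, both F266A IPs were above both EV IPs for Bmp4, Bmpr1a, Smad7 and Id1, as they were for 25.9% of the genes tested, and below both for 0 of the 5 genes tested, beside 28.6% of the genes tested. Id2 and Id4, which lay below both EV IPs in F266A, were under the filter, and so were 14345 symbols of which 8.69% had that order. This set holds 3701 symbols at 0 in all libraries, which can have no order. The full order of EV below WT below F266A without overlap, seen in Bmp4, Bmpr1a and Id1, occurred in 407 of 9787 genes (4.16%). The F266A input was the highest input for Bmp4, Bmpr1a and Id1 (22.9% of genes) and the lowest for 0 of the 5 genes tested (58.9% of genes) and for Smad6 and Id4 (22.4% of the symbols under the filter). Between WT and EV, 0 of the 5 genes were called, and limma called 0 of 9787 genes (0%) with 557 at an unadjusted p under 0.05. By order, both WT IPs were above both EV IPs for Bmp4, Bmpr1a, Smad7 and Id1 (21.2% of genes tested) and for Id2 (13.7% of the symbols under the filter). Between WT and F266A, 0 of the 5 were called, against 114 of 9787 genes (1.16%), 76 of them (0.777%) higher in WT and 38 (0.388%) lower. By order, both WT IPs were below both F266A IPs for Bmp4, Bmpr1a and Id1 (18% of genes) and above them for 0 of the 5 genes tested (23.3% of genes) and for Smad6, Id2 and Id4 (9.96% of the symbols under the filter). The comparisons share libraries, so their values are not independent.

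The study's measure of retrieval was the enrichment score, here log2(RPKM + 1) of an IP minus that of the input of its line, which takes up the higher F266A inputs of Bmp4 and Id1. Bmp4 scores were above 0 in every IP. The median RPKM of the genes tested rose too, in F266A from 2.32 in the input to 3.38 in IP1. The scores of Bmp4 were 0.80 and 0.91 in EV, 1.31 and 1.16 in WT and 0.39 and 1.26 in F266A. EV, which has no tagged protein, thus gave a mean of 0.86 ± 0.07 beside 1.23 ± 0.10 for WT and 0.82 ± 0.61 for F266A (SD, n = 2 each). The F266A scores enclosed those of EV and the lower WT score. The low F266A score of 0.39 came from IP1, which was set against the input of a line whose markers it did not match.

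Id1 scores were negative in EV (-0.29 and -0.05) and positive in WT (0.71 and 0.43) and F266A (0.46 and 0.57). The tagged lines overlapped and EV lay below both. Id2 scores were 0.56 and 0.41 in WT, above 0.20 and 0.11 in F266A and -0.03 and 0.01 in EV, with no overlap. The low WT input of Id2 enters both WT scores. Both WT scores above 0 and above all scores of EV and F266A, as for Id2, is the rule of the study, which 4.79% of all symbols met. How many of all genes have the full score orders of Id1 or Id2 was not counted. Bmpr1a had mean scores of 0.24 ± 0.03 in EV, 0.25 ± 0.15 in WT and 0.44 ± 0.05 in F266A, and Id3 had 0.22 ± 0.03, 0.51 ± 0.59 and 0.49 ± 0.38. The scores of Smad7 averaged -0.14 ± 0.11, -0.09 ± 0.12 and 0.03 ± 0.17, those of Smad6 -0.04 ± 0.24, 0.18 ± 0.01 and 0.02 ± 0.13, and those of Id4 0.18 ± 0.12, -0.06 ± 0.08 and 0.09 ± 0.07 in the same order of lines.

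**Figure D3:**
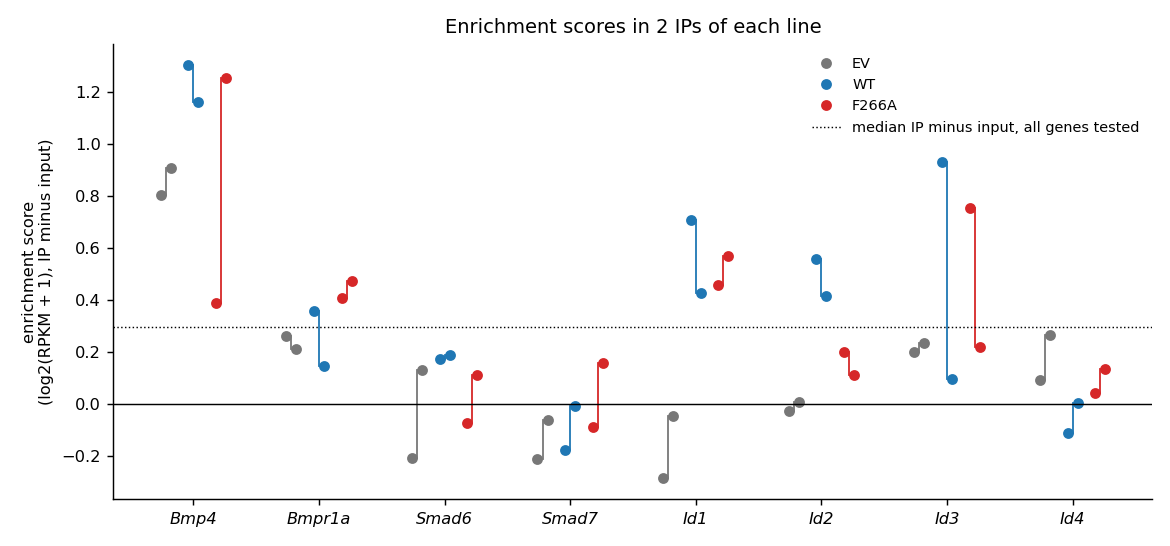
Enrichment score (vertical axis, log2(RPKM + 1) of the IP minus the input of its line) of the 8 genes in both IPs of EV (grey), WT (blue) and F266A (red); lines join the 2 IPs of a line, and the dotted line is the median IP minus input difference of all genes tested, 0.30. Bmp4 lies above the dotted line in every IP, including EV, and Id1 lies below 0 in EV and above the dotted line in the tagged lines. The dotted line pools the lines and is not the shift of each single library.

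No difference in enrichment between lines passed the test. limma called 0 of 9787 genes (0%) in each of the 3 comparisons, with 259 at an unadjusted p under 0.05 for WT minus F266A, 173 for WT minus EV and 243 for F266A minus EV. For Id1 the difference in score was 0.73 for WT minus EV (SE 0.27, 95% interval 0.11 to 1.36, adjusted p = 1), 0.68 for F266A minus EV (SE 0.27, 0.06 to 1.30, adjusted p = 1) and 0.05 for WT minus F266A (SE 0.27, -0.57 to 0.68, adjusted p = 1). For Bmp4 the corresponding differences were 0.38, -0.03 and 0.41 with an SE of 0.42, and the WT minus F266A value turned to -0.02 without F266A IP1. Each input, being a single library, was assumed to vary like the IPs.

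The study retained RNAs enriched in both WT IPs, with each WT score higher than any of the 4 scores of EV and F266A. The pseudocount behind the study's scores is not given in the sources used here, and with the pseudocount of 1 chosen for these data 1157 of 24132 symbols (4.79%) were retained, and of the 8 genes Smad6 and Id2 were among them. The rule is a count, and no test was made. Smad6 passed by a margin of 0.04 (0.17 against 0.13) and Id2 by 0.21 (0.41 against 0.20), whereas Bmp4 missed by -0.09 (1.16 against 1.26 in F266A IP2) and Id1 by -0.14 (0.43 against 0.57 in F266A IP2). The margins of Bmpr1a, Smad7, Id4 and Id3 were -0.33, -0.33, -0.38 and -0.66. Whether Bmp4 met the rule depended on the settings. With a pseudocount of 0.1 or 0.01 in place of 1, Bmp4 and Id1 were retained too, 4 genes in all, beside 5.26% and 5.67% of all symbols. Under quantile normalization Bmp4 was retained beside Smad6 and Id2 (5.96% of all symbols). Without WT IP2, Bmp4, Id1 and Id3 were retained beside Smad6 and Id2, but the rule then asked for 1 WT score only and retained 13.4% of all symbols. With libraries centred on their medians Id2 alone was retained (2.79% of all symbols).

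Across the 3 lines together, IPs were above inputs for most genes, with a median difference of 0.30 over all 9787 and 5567 genes (56.9%) called, 5521 of them (56.4%) higher and 46 (0.47%) lower. Against this background 3 of the 5 genes tested were called higher by limma: Bmp4 at 0.97 (SE 0.17, adjusted p = 0.00444), Bmpr1a at 0.31 (SE 0.08, adjusted p = 0.0165) and Id1 at 0.30 (SE 0.11, adjusted p = 0.0444). Id3 had 0.41 (SE 0.20, adjusted p = 0.105) and Smad7 -0.06 (SE 0.09, adjusted p = 0.553). Relative to the median of each library, Bmp4 kept 0.66 (adjusted p = 0.102), and Bmpr1a and Id1 were at -0.00016 and -0.0056. The call of Id1 was also lost when any of EV IP1, EV IP2, F266A IP2 or WT IP1 was left out (adjusted p between 0.0538 and 0.107), that of Bmpr1a was lost without EV IP1 (0.0556), and that of Bmp4 stayed whichever IP was left out. All 6 IPs were above the input of their line for Bmp4, Bmpr1a and Id3, as they were for 66.3% of the genes tested. Bmp4 IPs averaged 2.53-fold the input in EV, 3.61-fold in WT and 2.05-fold in F266A, so the line with no tagged protein also had more Bmp4 in its IPs than in its input.

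Set beside Bmp4 across the libraries, Id1 was the Id gene that followed it most closely. The Pearson correlation with Bmp4 on the log2(RPKM + 1) scale over 9 libraries was 0.83 for Id1, 0.41 for Id3, 0.15 for Id2 and -0.37 for Id4. In the 6 IPs alone it was 0.86 for Id1, 0.04 for Id3, -0.57 for Id2 and -0.63 for Id4. For the other genes it was 0.89 for Bmpr1a, 0.41 for Smad7 and 0.04 for Smad6 over the 9 libraries, and 0.90, 0.79 and -0.05 in the 6 IPs alone. Libraries of 1 line share their cells, so these coefficients are descriptions and carry no test. Bmpr1a ranked 323 and Id1 ranked 701 of 9786 genes by likeness to Bmp4, and many genes followed Bmp4 more closely. The most similar genes were Spry4 (0.99), an inhibitor of receptor tyrosine kinase signaling, Kpna6 (0.99), an importin alpha, Atxn1l (0.98), Agpat6 (0.98) and Pnpla6 (0.98). The genes most similar to Id1 were Hmgxb3 (0.97), Surf4 (0.96), Bcl2l13 (0.96), Carhsp1 (0.96) and Arhgap27 (0.95). Of these lists, Kpna6 was the one gene that stayed among the 5 most similar in the 6 IPs alone.

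**Figure D4:**
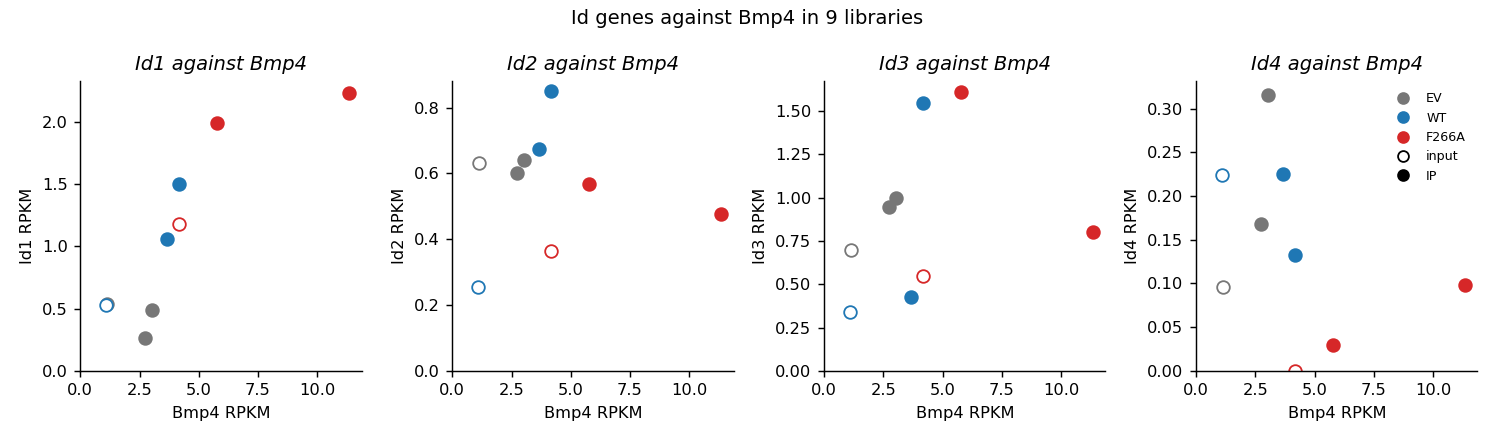
RPKM of each Id gene (vertical axis) against RPKM of Bmp4 (horizontal axis), both linear and from 0, with 1 point per library; open points are inputs, filled points IPs, grey EV, blue WT and red F266A. Id1 is highest where Bmp4 is highest, in F266A IP2 at 2.23 and 11.4, whereas Id4 is 0.0983 or lower in the F266A libraries.

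The other genes of the pathway gave the levels around these 8. Of 69 further genes listed, 24 passed the filter. Of 14 other ligands only Gdf3, a TGF-beta family ligand of pluripotent cells, passed. It ranged from 2.89 to 9.02 RPKM with a mean of 6.41 over the 9 libraries, above the mean of 4.12 for Bmp4, and its difference between F266A and EV IPs was -0.41. Of 9 other receptors and co-receptors, 4 passed. Bmpr2, the type II BMP receptor, gave RPKM of 2.85, 3.16 and 3.23 for input, IP1 and IP2 of EV, 3.49, 4.32 and 4.18 for those of WT, and 4.46, 4.87 and 5.73 for those of F266A. The IPs of the 3 lines did not overlap, with EV lowest and F266A highest, an order found in 4.16% of the genes tested. Bmpr2 rose by 0.58 from EV to F266A IPs (SE 0.11, limma adjusted p = 0.0368). Acvr2b, Eng and Acvr2a averaged 2.03, 1.48 and 1.07 RPKM and were not called.

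Of the 4 receptor and common Smads, 3 passed the filter. Smad4 averaged 5.22 RPKM, Smad1 2.46 and Smad5 1.46, while Smad9 was at 0.0182 or below in every library. None differed between lines by the test, and Smad1 had the largest difference of the 3 between F266A and EV IPs (0.37, SE 0.12, adjusted p = 0.146). Of 10 intracellular modulators, 9 were tested and 0 were called between lines. Their median difference between F266A and EV IPs was 0.16, beside -0.00 for all genes tested. Fkbp1a, which holds type I receptors inactive, was the most abundant at a mean of 63.0 RPKM, followed by the Smad corepressors Skil (10.1) and Ski (8.57).

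Extracellular antagonists were scarce. Of 19 listed, Twsg1, Fstl1 and Dand5 passed the filter. Fstl1, a secreted BMP-binding glycoprotein, gave RPKM of 5.07, 7.14 and 6.77 for input, IP1 and IP2 of EV, 4.40, 5.23 and 6.46 for those of WT, and 2.33, 3.48 and 3.18 for those of F266A. The F266A libraries were the lowest of each fraction. Of all genes tested, 58.9% had the F266A input lowest and 28.6% had both F266A IPs below both EV IPs. Fstl1 fell by 0.88 between EV and F266A IPs (SE 0.13, limma adjusted p = 0.015). Of 10 other BMP-responsive genes only Dusp9, a MAP kinase phosphatase reported to act downstream of BMP in ESCs, passed the filter. Its RPKM in input, IP1 and IP2 was 7.99, 11.4 and 8.23 for EV, 8.73, 12.4 and 11.3 for WT, and 14.1, 18.4 and 18.1 for F266A. All 3 F266A libraries were above the other 6, and the share of all genes with this order was not counted. Of the genes tested, 22.9% had the F266A input highest and 25.9% had both F266A IPs above both EV IPs. Dusp9 rose by 0.85 from EV to F266A IPs (SE 0.15, limma adjusted p = 0.0307). The E protein genes Tcf3, Tcf12 and Tcf4, whose products the Id proteins bind, averaged 11.4, 2.91 and 1.40 RPKM, and 0 of the 3 were called.

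Over these 24 genes, 2 rose (Bmpr2 and Dusp9), 1 fell (Fstl1) and 21 did not pass between F266A and EV, with a median of 0.12 beside -0.00 for all genes and with 4.55% of all genes called (1.16% higher and 3.38% lower). Each of the 3 calls was lost without either EV IP and with no filter on low values, with limma adjusted p-values between 0.0993 and 0.280. Without F266A IP1 the adjusted p was 0.0259 for Bmpr2, 0.0534 for Dusp9 and 0.0198 for Fstl1, and without F266A IP2 it was 0.0813, 0.0622 and 0.0401. Without either WT IP Bmpr2 (0.0566 and 0.0567) and Dusp9 (0.0530 and 0.0537) did not pass and Fstl1 did. In WT minus EV and in WT minus F266A 0 of the 24 were called, and in IP minus input 14 were called higher, beside 56.4% of all genes, with a median of 0.29 beside 0.30 for all genes.

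The higher Bmp4 and Id1 of the F266A line stood beside higher endoderm sums in its input and IP2. In F266A IP1 that sum was not higher, though several single endoderm markers were. The Y-linked sums differed among the F266A libraries and were low in all WT libraries (0.182 to 0.324). In F266A IP1, where the endoderm sum was 24.2 and the Y-linked sum 0.0383, Bmp4 and Id1 were 5.77 and 1.99, and in F266A IP2, where the sums were 75.9 and 7.21, they were 11.4 and 2.23. Between these 2 IPs, Bmp4 differed 1.97-fold, Id1 1.12-fold and the endoderm sum 3.13-fold. The part of cell composition in these values was not tested. Each line was derived separately, and clone and construct cannot be told apart.

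**Figure D5:**
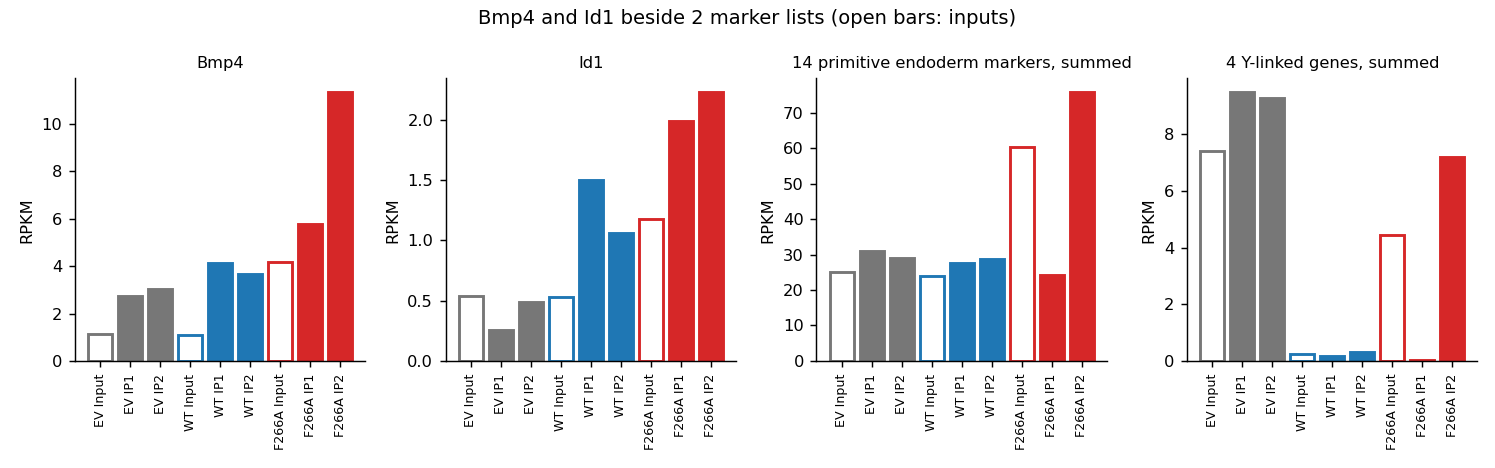
RPKM of Bmp4 and Id1 and summed RPKM of 14 primitive endoderm markers and 4 Y-linked genes (vertical axes, linear from 0) in the 9 libraries; open bars are inputs, filled bars IPs, grey EV, blue WT and red F266A. The F266A input and IP2 have endoderm sums of 60.4 and 75.9, and F266A IP1 has 24.2 with Y-linked genes at 0.0383.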

How the data were processed

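Per the labels and the study's methods, the authors aligned reads with TopHat 1.1.3 (genome build mm9), calculated RPKM per gene with their own script, and deposited RPKM for 24132 RefSeq symbols in 9 libraries. Since RPKM values are not counts, count models were not fitted. Mapped reads per library (13412344 to 50175786) were estimated from the lowest step of RPKM times GENCODE M1 exon length, and intervals (exact Poisson, 95%) and floors (3 reads) cover counting error only, since PCR copies are not independent molecules.

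Groups and replicate numbers came from the library titles. Nothing in the labels says that replicates came from separate cultures, so p-values measure the spread between these libraries. The differences were fitted in R 4.3.3 using limma 3.58.1 (eBayes with trend) on log2(RPKM + 1), with 1 coefficient per line and fraction, over the 9787 genes that reached an RPKM of 1 in 2 or more libraries. The threshold was an adjusted p of 0.05 (Benjamini-Hochberg). Folds on this scale understate the change of low genes. Of the 8 genes, 5 were tested. Tested on simulated data, the fit of 9787 genes recovered 96 of 100 changes of 1 on the log2 scale for WT minus F266A IPs (13 false calls) and 44 of 100 for the difference in enrichment (12 false calls). Each simulated gene had 1 mean in all libraries, independent normal spread and changes in the WT IPs only. The simulation held no library that did not match its line, so these counts are not the power of the tests on the real libraries. Other steps used Python 3.11.15, numpy 2.4.6, pandas 2.3.3, scipy 1.17.1 and matplotlib 3.10.9. Motif windows were read from the mm9 genome at GENCODE M1 starts.

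The genes and lists were chosen with earlier results of these data known. Named were the 8 genes, pathway genes past the threshold (up to 5 per comparison), otherwise the most abundant of each list, and the 5 genes most correlated with Bmp4 and with Id1. The single endoderm markers and Wdr5 were named after their values were seen. The alternatives were pseudocounts of 0.1 and 0.01, no filter, quantile normalization, median centring, eBayes without trend, a replicate block, the input counted as another library of its line's IP group, and leaving out each IP library or line.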

Additional observations from a re-analysis of the deposited data

Results flagged for a closer look

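The mean enrichment score of Id1 was positive in both tagged lines, 0.57 in WT and 0.51 in F266A, and negative in EV, at -0.17. It was flagged because every IP of the tagged lines was above its input and both EV IPs were below theirs. The share of all genes with this pattern was not counted. The differences in score had limma adjusted p-values of 1 for WT minus EV and for F266A minus EV, so neither passed the test, and the EV scores rest on about 7.56 and 7.58 reads per IP.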

How the results depend on the processing

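The direction and the call of the single-gene results were the same in 398 of the values under other settings, while 25 lost a call, 6 gained one and 21 changed sign. With no filter on low values, limma called 0 genes in WT minus F266A IPs, 2 in WT minus EV and 2 in F266A minus EV with 0 of the 8 genes, 33, 45 and 22 genes in the enrichment differences WT minus F266A, WT minus EV and F266A minus EV, and 3258 in IP minus input with 1 of the 8, where 20431 genes were tested. Quantile normalization gave 2 genes in WT minus EV, 242 in F266A minus EV with 1 of the 8, and 239 in IP minus input with 0. Median centring gave 153 in IP minus input with 0 of the 8, and the rule of the study then retained 1 (2.79% of all symbols). IP minus input turned to -0.061 for Bmpr1a under quantile normalization, and to -0.00016 for Bmpr1a and -0.0056 for Id1 after centring. With the input counted as another library of its line's IP group, 976 genes were called in WT minus F266A (1 of the 8), 17 in WT minus EV and 1635 in F266A minus EV (4 of the 8). A pseudocount of 0.1 gave 88 genes in the enrichment difference F266A minus EV, and pseudocounts of 0.1 and 0.01 let the rule retain 4 (5.26% and 5.67% of all symbols). IP minus input had 2940 genes without the EV line and 1 of the 8 without the F266A line. The replicate numbers did not pair the libraries (correlations of deviations 0.26, 0.11 and 0.01 between lines). Under the replicate block, 154 genes were called in WT minus F266A, 7 in WT minus EV and 607 in F266A minus EV, the calls of Bmp4 and Id1 between F266A and EV stayed (adjusted p = 0.0236 and 0.0117), and in IP minus input Id3 passed (0.0446) and Id1 did not (0.0507).

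Leaving out each IP library in turn gave 0 to 196 genes in WT minus F266A (0 to 1 of the 8), 0 to 7 in WT minus EV, 0 to 480 in F266A minus EV (0 to 2 of the 8), 0 to 2 in the enrichment difference WT minus F266A, 3998 to 5875 in IP minus input (1 to 4 of the 8), and 2 to 5 genes retained by the rule. The rule retained 13.9% of all symbols without WT IP1 and 13.4% without WT IP2. Signs turned in the ranges of the following differences. In WT minus F266A, Id3 ran from -0.60 without WT IP1 to 0.23 without WT IP2 (0.08 without F266A IP1) and Smad7 from -0.20 without F266A IP1 to 0.050 without F266A IP2 (0.01 without WT IP1). Id3 ran from -0.47 to 0.37 in WT minus EV and from -0.13 without F266A IP1 to 0.40 in F266A minus EV. In the enrichment difference WT minus F266A, Bmp4 ran from -0.022 without F266A IP1 to 0.85, Id1 from -0.086 without WT IP1 to 0.19, and Id3 from -0.39 without WT IP1 to 0.44. In that of WT minus EV, Bmpr1a ran from -0.090 without WT IP1 to 0.12, Smad7 from -0.040 without WT IP2 to 0.13, and Id3 from -0.12 without WT IP1 to 0.71. In that of F266A minus EV, Bmp4 ran from -0.47 without F266A IP2 to 0.40 without F266A IP1. The cause of these changes was not tested. Genes below an RPKM of 1, Smad6, Id2 and Id4, rest on at most 60.8 reads per library, and single inputs limit every enrichment difference.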
